A study of Bos taurus with 18 samples.

Results

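POU5F1 and NANOG encode transcription factors of the pluripotent cells of the early embryo. The rows ENSBTAG00000021111 (POU5F1, also called OCT4) and ENSBTAG00000020916 (NANOG) were taken by their Ensembl IDs, 2 of 24616 IDs in the deposited count table, and both were among the 13060 IDs that passed the filter on low counts. The samples were 18 demi-embryos from superovulated Holstein heifers. Each is a piece of a blastocyst that had been cut through with a blade so that trophectoderm and inner cell mass were present on both sides. The piece that was not sequenced went to a recipient heifer. For 4 embryos, called pregnant here, the recipient carried a pregnancy on days 30 and 60 of gestation. For the other 14, called not pregnant, no pregnancy was found on day 30. No treatment or genotype separates the groups, and the labels name neither the donor of an embryo nor its sex. The series design places the collection 8 days after ovulation, while the handling protocol speaks of day 7 of culture. Where the cut was uneven, the smaller or more damaged piece was the one sequenced, so the number of cells and the share of each cell type per library are not known.

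POU5F1 is a POU-domain homeobox protein that binds DNA together with SOX2 and keeps the inner cell mass from taking up other fates. In the cattle blastocyst it is found in the inner cell mass and also in trophectoderm, the outer cells that give rise to the placenta, unlike in the later mouse blastocyst. NANOG is a homeobox protein of the epiblast, the part of the inner cell mass that forms the body of the fetus, and it is low or absent in trophectoderm and in the hypoblast, which lines the yolk sac. In cattle embryos, loss of POU5F1 is known to remove NANOG, and loss of NANOG to leave the blastocyst without a proper epiblast.

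The libraries held 854791 to 4689576 counts, with a median of 2084917. Of the pregnant libraries, 3 held 854791 to 1095874 counts, while pregnant 3, at 2439701, also had 58.8% of its counts in the 20 most abundant IDs. Each sample description ends in a number after the letter S, called the index number here, whose meaning the labels do not give. The 7 libraries with index numbers 11 to 18, all not pregnant, held low NANOG values, and results are given with and without them, a choice made in view of those values. The 20 most abundant IDs took 28.1% to 35.1% of the counts in these libraries and 36.2% to 58.8% in the 11 others, ranges that nearly touch. The labels do not say that embryos came from separate donors, so the embryos may not be independent. The p-values treat each embryo as a separate unit and could be too small if embryos share a donor. They speak only for these samples.

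POU5F1 was detected in every demi-embryo at a steady level. The pregnant libraries held 285, 234, 533 and 219 counts (pregnant 1, 2, 3 and 5), and the not-pregnant libraries held from 300 to 1157, with a median of 492. On the log2 CPM scale (CPM is a count brought to a common library total after scaling of the libraries), the pregnant values were 7.86, 7.59, 8.30 and 7.82. The not-pregnant values had a minimum of 7.20, a median of 7.88 and a maximum of 8.30. The groups overlapped: 8 of the 14 not-pregnant values lay inside the pregnant range, 5 below it and 1 above it. From the lowest to the highest of all 18 embryos, POU5F1 spanned 2.14-fold.

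NANOG was detected in every demi-embryo too, but its level differed widely from one to the next. The pregnant libraries held 51, 110, 40 and 92 counts, and the not-pregnant libraries held from 2 to 223, with a median of 64. The pregnant log2 CPM values were 5.41, 6.51, 4.61 and 6.57. The not-pregnant values had a minimum of 0.81, a median of 4.31 and a maximum of 7.05. Of the 14 not-pregnant values, 8 lay below the pregnant range, 5 inside it and 1 above it, and all 4 pregnant values were above the not-pregnant median. From the lowest to the highest of all 18 embryos, NANOG spanned 75.8-fold on this scale. The scale adds a prior count of 2, which is about the size of the lowest count and narrows the span. Without the prior count and the scaling of libraries, CPM ran from 0.866 in not-pregnant 1 to 128.7 in not-pregnant 10. The lowest value, in not-pregnant 1, rested on 2 counts of 2310056, for which the exact Poisson 95% interval runs from 0.242 to 7.22 counts. The highest, in not-pregnant 10, rested on 223 counts of 1732911, with an interval of 194.7 to 254.3. These intervals cover counting error only.

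**Figure D1:**
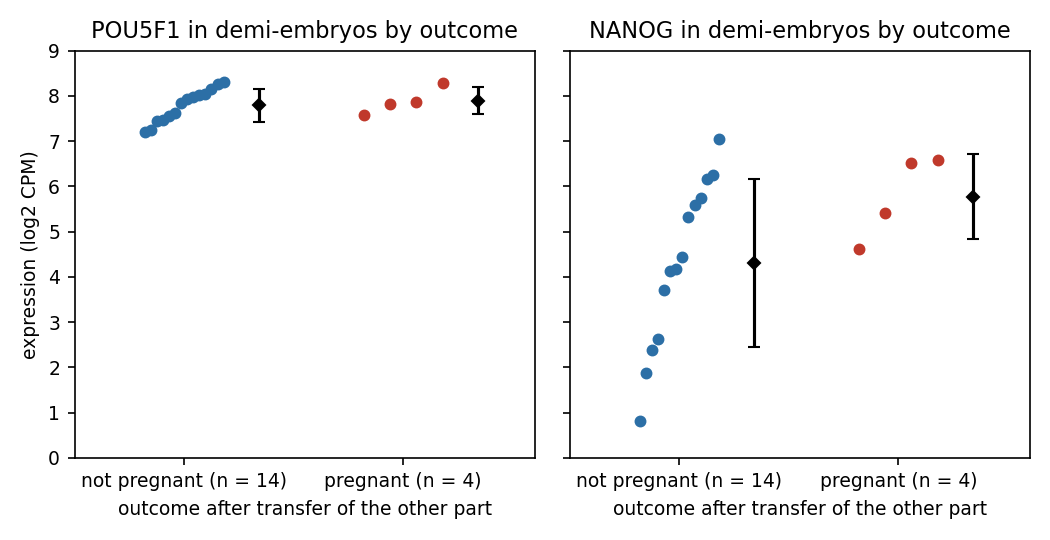
Log2 CPM of POU5F1 (left) and NANOG (right) in each demi-embryo, by the outcome of the other piece, with points sorted by value within a group and the mean ± SD beside them as a diamond with bars. POU5F1 lies between 7.20 and 8.30 in all 18 embryos, while NANOG runs from 0.81 to 7.05 in the not-pregnant group and from 4.61 to 6.57 in the pregnant group.

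The first comparison asked whether either factor differed between embryos that did and did not lead to a pregnancy. Neither passed the test. POU5F1 was at 7.89 ± 0.30 log2 CPM (SD, n = 4) in pregnant and 7.79 ± 0.36 (SD, n = 14) in not-pregnant embryos. Its log2 fold change came to 0.08 (SE 0.19, adjusted p = 0.853 in edgeR's quasi-likelihood test), with a 95% interval of -0.31 to 0.48. Its direction was not stable: without pregnant 3 the log2 fold change was -0.17 (SE 0.22), and a filter of CPM above 1 in 4 libraries gave -0.10 (SE 0.20). Over the 13060 tested IDs as a whole the median was 0.10, close to the value of POU5F1.

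NANOG was at 5.78 ± 0.94 log2 CPM (SD, n = 4) in pregnant and 4.31 ± 1.85 (SD, n = 14) in not-pregnant embryos. The log2 fold change was 0.82 (SE 0.85, adjusted p = 0.652 in edgeR's quasi-likelihood test), and its 95% interval of -0.97 to 2.62 reaches on both sides of 0. The size depended on the scale. The difference between the mean log2 CPM values was 1.47 (exact two-sided permutation p = 0.149), and limma voom, which also averages log values, gave 1.65 (SE 0.73, adjusted p = 0.153). Of all 13060 IDs tested, 0.773% were called in either direction at an adjusted p under 0.05 in edgeR, 0.345% higher and 0.429% lower, and 0 of the 2 factors were among them. At an unadjusted p under 0.05, which 16.8% of the IDs passed in edgeR, 0 of the 2 passed as well. In limma voom 24.3% of the IDs were under this unadjusted limit, NANOG among them, and 8.32% were called after adjustment, neither factor among them. After cyclic loess normalization 9.64% were under the unadjusted limit in limma voom, with POU5F1 among them at 0.46 on the log2 scale (SE 0.20, adjusted p = 0.463), and 0.0919% were called, again neither factor. DESeq2 called 2.5% of the IDs and 0 of the 2 factors, with NANOG at 0.84 (SE 0.86, adjusted p = 0.644).

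**Figure D2:**
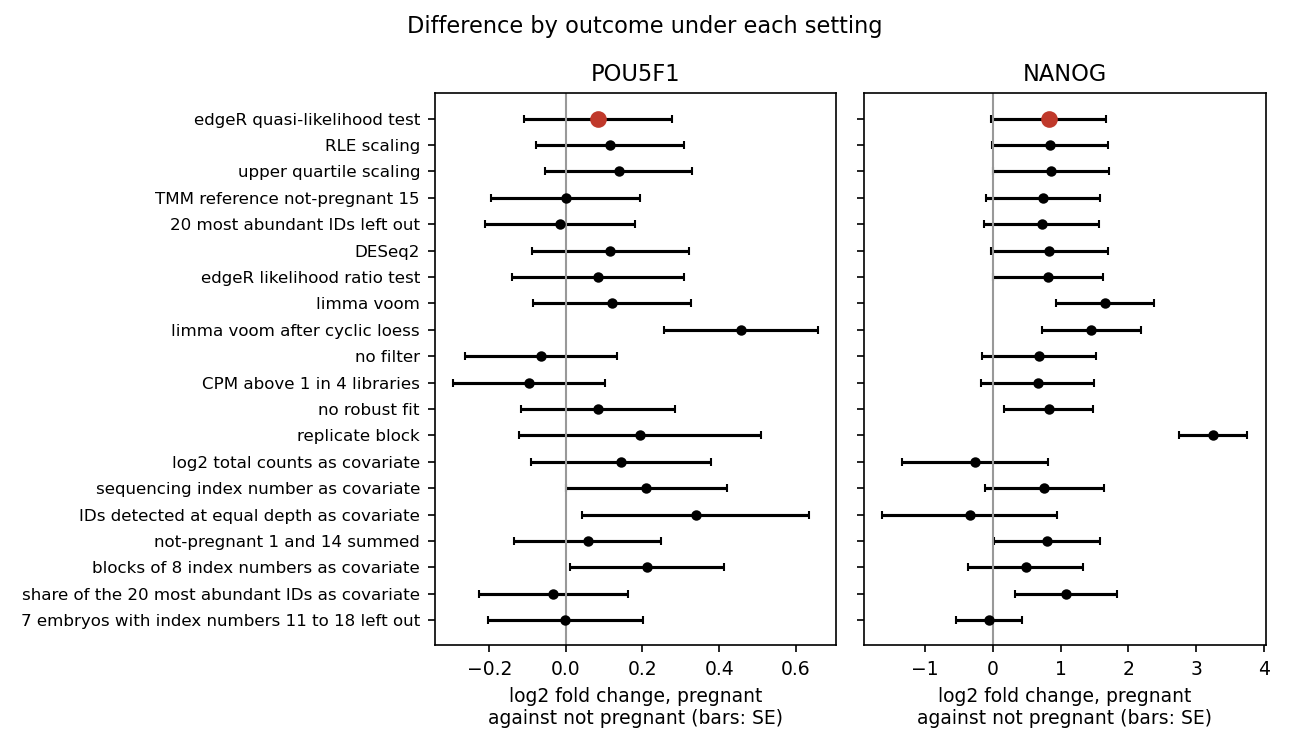
Log2 fold change of POU5F1 (left) and NANOG (right) in the pregnant against the not-pregnant group in the tests, scalings, filters, covariates and sets of samples named on the axis (fits that leave out 1 embryo are not drawn), with bars of 1 SE and the edgeR quasi-likelihood test in red; the horizontal scales differ. In the fits drawn, POU5F1 stays between -0.10 and 0.46, on both sides of 0, and NANOG lies between 0.66 and 1.65 except in 5 settings, which are -0.26 with log2 total counts, -0.34 with IDs detected, -0.054 without the 7 libraries with index numbers 11 to 18, 0.49 with blocks of index numbers and 3.25 with a block on title numbers.

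Low NANOG values sat together along the index numbers. In the order of the index numbers 11, 13, 14, 15, 16, 17 and 18, the log2 CPM of NANOG was 2.37, 1.87, 2.63, 4.43, 4.18, 3.72 and 0.81, on 9, 7, 16, 92, 47, 24 and 2 counts. These were 7 of the 8 lowest NANOG values in the series. In the 7 other not-pregnant embryos NANOG ran from 4.12 to 7.05, with a median of 5.74, which overlaps the whole pregnant range. With the 7 libraries left out, the NANOG log2 fold change was -0.054 (SE 0.49), against 0.82 with them. All 7 are not pregnant, and they were picked out in view of these low values, so this fit is a description of where the difference lies. Whatever sets the index numbers 11 to 18 apart cannot be told apart from outcome in these 7 embryos.

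POU5F1 showed no such run of low values. In the same order, its log2 CPM was 7.20, 7.63, 7.84, 8.03, 7.98, 8.30 and 7.26, which covers the full range of the series. The median of these 7 was 7.84, against 7.86 in the 11 others.

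**Figure D3:**
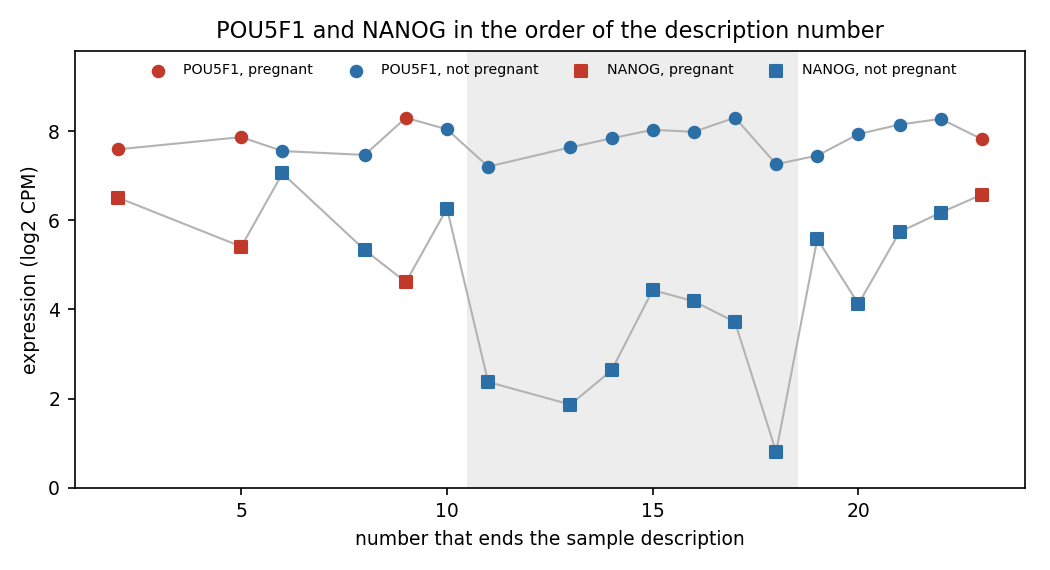
Log2 CPM of POU5F1 (circles) and NANOG (squares) in 18 demi-embryos, in the order of the number that ends each sample description, coloured by outcome, with the numbers 11 to 18 shaded. NANOG lies at 0.81 to 4.43 in the 7 shaded embryos and at 4.12 to 7.05 in the 11 others, while POU5F1 stays between 7.20 and 8.30 throughout.

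Within blocks of 8 index numbers, which were chosen after the values were seen and each hold both outcomes, the difference in NANOG between outcomes did not keep its direction. Among the numbers 1 to 8 the mean log2 CPM of NANOG was 5.96 in 2 pregnant and 6.19 in 2 not-pregnant embryos. Among the numbers 9 to 16 it was 4.61 in the 1 pregnant embryo and 3.63 ± 1.65 (SD, n = 6) in the not-pregnant embryos. Among the numbers 17 to 24 it was 6.57 in the 1 pregnant embryo and 4.36 ± 1.99 (SD, n = 6) in the others. With these blocks as a covariate, edgeR put NANOG at 0.49 on the log2 scale (SE 0.85, adjusted p = 0.832).

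Library measures moved with outcome too. At the equal depth of 854791 counts, 16753 to 18569 IDs were detected in the pregnant and 11672 to 16167 in the not-pregnant libraries, and 3 of the 4 pregnant totals were below the lowest not-pregnant total of 1611847. The NANOG difference did not keep its sign when either measure entered the fit. With log2 total counts as a covariate, the log2 fold change was -0.26 (SE 1.08, with an adjusted p of 0.984 in edgeR). With the number of IDs detected at equal depth, it was -0.34 (SE 1.29, adjusted p = 1.00 in edgeR). Both standard errors were larger than the 0.85 without a covariate, and the part of these measures in the difference was not tested.

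The sharpest contrast between the factors was in their spread between embryos. Over the 18 embryos the SD of log2 CPM was 1.78 for NANOG and 0.34 for POU5F1, a ratio of 5.17. The test that swaps the centred values of the genes within embryos gave a two-sided p of 4.58e-05. This p is approximate, since the values were centred once on estimated means. The swap test also takes counting error as spread, and that error is larger for NANOG, so it does not test spread beyond counting error. If each count were an independent molecule, counting would give a root mean square SD of 0.35 for the log2 counts of NANOG, or 0.26 without not-pregnant 1, and 0.07 for those of POU5F1. Counts of amplified reads need not be independent, so these are lower limits of the sampling error. The ratio was smaller when the libraries were split by index number. The 7 with index numbers 11 to 18 gave 3.24 (swap test p = 0.0469). The 11 others gave 2.80 (swap test p = 0.0205). The 7 were picked out for low NANOG values, so this split narrows the spread of NANOG by construction. The values on its 2 sides are therefore a description. In the 4 pregnant embryos the ratio was 3.18, where 4 embryos cannot give a two-sided p under 0.125 in the swap test. This comparison was chosen after the values were seen.

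Against other IDs at or above its abundance, NANOG was among the most variable and POU5F1 was ordinary. The biological coefficient of variation, which is edgeR's estimate of the relative spread between embryos of 1 group beyond counting error, was 1.03 for NANOG, against 0.35 on the trend at the same abundance. For POU5F1 it was 0.27, against 0.30 on the trend. Of the 3129 other tested IDs with a mean CPM at or above the 41.5 of NANOG, 13 (0.415%) had a larger coefficient. Of the 424 with a mean CPM at or above the 230.2 of POU5F1, 180 (42.5%) had a larger one. The trend falls as abundance rises, so these sets hold IDs with lower trend values than the factor they are set against. By the plain SD of log2 CPM, 19 of the 3129 IDs varied more than NANOG over all 18 embryos. Without the 7 libraries with index numbers 11 to 18, the SD of NANOG fell from 1.78 to 0.87, and 88 of the 3129 IDs varied more, against a median SD of 0.39 for those IDs. Since these libraries were picked out for low NANOG values, leaving them out lowers its SD and rank by construction.

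**Figure D4:**
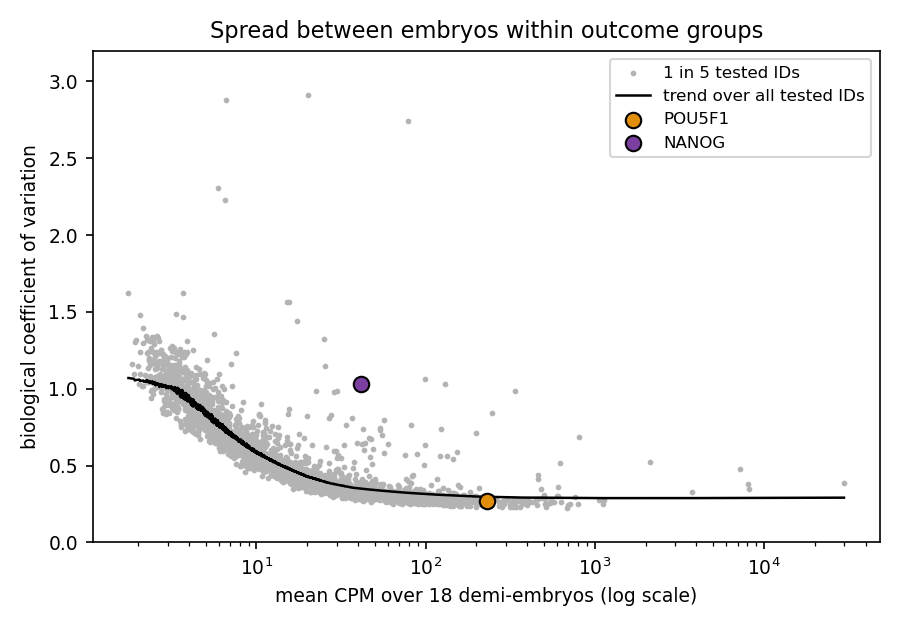
Biological coefficient of variation against mean CPM (log scale) for 1 in 5 of the tested IDs (grey), the trend over all tested IDs (line), POU5F1 and NANOG. NANOG, at 1.03, lies far above the trend value of 0.35 at its abundance, and POU5F1, at 0.27, lies just under the trend value of 0.30.

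Spread was next compared by outcome. The mean absolute deviation of NANOG from its group median was 0.77 log2 CPM in the pregnant and 1.49 in the not-pregnant embryos, a difference of -0.72 that did not pass (exact two-sided permutation p = 0.191). With the 7 libraries left out the difference was 0.13. Since they were picked out for low NANOG values in the not-pregnant group, leaving them out narrows that group by construction, and this value is no test. For POU5F1 the deviations were 0.19 and 0.31, a difference of -0.12 that did not pass either (exact permutation p = 0.318). Both tests permuted deviations taken once from the labelled group medians. Deviations from a median of 4 values are shrunk more than those from a median of 14, so these p-values are approximate.

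The balance of the factors within an embryo was read from the ratio of their counts. The files give no transcript lengths, so a higher count of POU5F1 does not show a higher level of its transcript, and only differences in the ratio between embryos can be interpreted. The count of POU5F1 exceeded that of NANOG in all 18 embryos. In the pregnant group the ratio of POU5F1 to NANOG counts was 5.59, 2.13, 13.3 and 2.38. In the not-pregnant group it ran from 1.42 to 186.0, with a median of 13.6. The ratio thus spanned 131-fold between not-pregnant embryos, with the top of 186.0 in not-pregnant 1 on 2 counts of NANOG. The pregnant values were below the not-pregnant median, with pregnant 3 close to it.

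On a log2 scale, with 0.5 added to each count, the ratio was 2.13 ± 1.23 (SD, n = 4) in the pregnant and 3.61 ± 1.91 (SD, n = 14) in the not-pregnant embryos. The difference of -1.48 was within the spread between embryos (exact two-sided permutation p = 0.163). It was 0.028 with the 7 libraries left out, which by their choice also lowers the not-pregnant ratios. Not-pregnant 1 and 14, whose descriptions start with the same number, 32, lay at 7.22 and 1.88, and the labels do not say what the shared number stands for.

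POU5F1 and NANOG were not tightly coupled across embryos. Over all 18, Pearson's r of their log2 CPM was 0.30 (permutation p = 0.223) and Spearman's rho was 0.13 (permutation p = 0.596). Over the 14 not-pregnant embryos, r was 0.39 (permutation p = 0.165) and rho was 0.38 (permutation p = 0.186). With Benjamini-Hochberg adjustment over these 2 sets, the adjusted p of r was 0.223 in both. Without not-pregnant 1 and 12, the embryos farthest from the POU5F1 median, r over the others was -0.13, so the weak positive relation rested on those embryos.

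**Figure D5:**
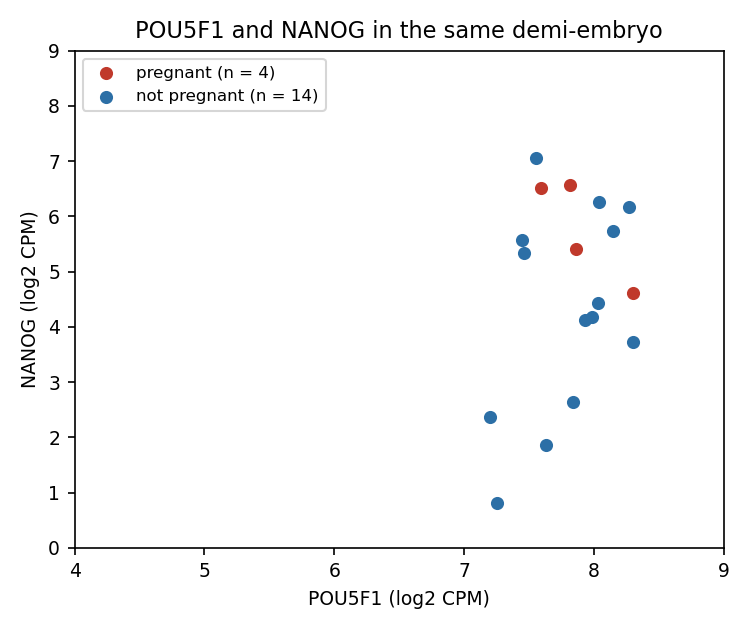
NANOG against POU5F1 (both in log2 CPM) in the same demi-embryo, 1 point per embryo, coloured by outcome. Points spread over 6.24 log2 units on the NANOG axis and 1.10 on the POU5F1 axis, with r = 0.30 over the 18 embryos.

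The IDs whose pattern across embryos was most like that of each factor were sought among 8680 other IDs with a mean of at least 8 CPM, by Pearson's r of log2 CPM after subtraction of the group means over 18 embryos. The table does not pair IDs with symbols, so these IDs are given without names. For NANOG they were ENSBTAG00000016959 (r = 0.91) and ENSBTAG00000012116 (r = 0.90). ENSBTAG00000012116 held 0 counts in not-pregnant 1 and 12, 2 in not-pregnant 5 and 3 in not-pregnant 4, the same 4 embryos in which NANOG was lowest, and 105 in not-pregnant 10, where NANOG was highest. This ID was picked by its r with NANOG over these same embryos, so the match follows from the choice and is a description. The match was not complete at the upper end. The largest count of the ID, 180, was in not-pregnant 11, where NANOG held 92 counts. Its highest log2 CPM, 6.06, was in not-pregnant 16. It held 34, 58, 57 and 47 counts in the pregnant libraries. Neither ID passed the test by outcome in edgeR: ENSBTAG00000012116 was at 0.86 on the log2 scale (SE 0.94, adjusted p = 0.674) and ENSBTAG00000016959 at 0.62 (SE 0.46, adjusted p = 0.518). For POU5F1 the closest were ENSBTAG00000007111 (r = 0.84) and ENSBTAG00000035998 (r = 0.83), with log2 fold changes by outcome of -0.06 (SE 0.23) and -0.17 (SE 0.21).

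A library here is a mix of cell types from a cut blastocyst. Fewer epiblast cells in a piece and less NANOG RNA per cell therefore cannot be told apart in these counts. Other markers of epiblast, hypoblast and trophectoderm were not analysed here, since only POU5F1 and NANOG were identified by ID.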

How the data were processed

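Total RNA of 18 demi-embryos was sequenced as single-end reads of 75 bases from a low-input library kit, per the labels' protocols. The authors deposited 1 table of raw counts, with a row for each Ensembl ID and a column for each embryo. The builds UMD3.1 and bosTau8 and edgeR are named in the submitters' processing notes; the aligner, counter, strand setting and handling of repeated reads or gene copies were points not given in the sources used here. Of the IDs, 0 matched the RefSeq gene table (another assembly), so lists of named genes were not used and no positions are printed. The members, lists and tests were chosen with earlier results of these data known.

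R 4.3.3 with edgeR 4.0.16 was used for the fit. IDs were kept by filterByExpr (by group; minimum 10 counts in 4 libraries of median size and a sum of 15). Libraries were scaled by TMM, and the outcome was tested by glmQLFTest after glmQLFit (robust), without covariates, with Benjamini-Hochberg adjustment over 13060 IDs, threshold 0.05. The SE is the one implied by the F statistic. Log2 CPM used a prior count of 2. Ratios and spread by outcome were tested by exact permutation over embryos, and correlations by 100000 resamples. The SD ratio was tested by swaps of centred values between the factors within each embryo. For the replicate block, the ratio was tested by sign changes of the differences within pairs. The edgeR fit and the permutation tests of group means and of the SD ratio were tried on simulated data. Alternatives used limma 3.58.1 and DESeq2 1.42.0, and vegan for IDs at equal depth. Both factors were always named; for IDs like them, the 2 with the highest r were taken, since no names were available.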

Additional observations from a re-analysis of the deposited data

How the results depend on the processing

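Neither factor passed the threshold by outcome in any alternative except the replicate block for NANOG. The log2 fold change of POU5F1 turned negative with not-pregnant 15 as TMM reference (-0.000478), with the 20 most abundant IDs left out (-0.016), with no filter (-0.065), with CPM above 1 in 4 libraries (-0.10), with the share of the 20 most abundant IDs as covariate (-0.032) and without the 7 libraries with index numbers 11 to 18 (-0.0019), and leaving out 1 embryo at a time gave -0.17 to 0.17. NANOG turned negative with log2 total counts (-0.26) or IDs detected at equal depth (-0.34) as covariate and without the 7 libraries (-0.054), and leaving out 1 embryo gave 0.55 to 1.08. Without the 7 libraries the log2 ratio of POU5F1 to NANOG differed by 0.028, the spread of NANOG by 0.13, and r between the factors was -0.28; r was -0.13 without the 2 embryos farthest in POU5F1. The cause was not tested. Leaving out 1 embryo gave -2.01 to -1.14 for the ratio, -1.10 to -0.56 for the spread of NANOG, -0.22 to -0.07 for that of POU5F1, 0.11 to 0.40 for r, and 2.26 to 2.46 for the log2 ratio of the SD of NANOG to that of POU5F1.

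The numbers in the titles that both groups share (1, 3 and 5) gave no sign of pairing the samples: correlations of the deviations were -0.04, 0.07 and -0.03, and none was highest with its own number. With the replicate block the NANOG log2 fold change was 3.25 (SE 0.50, adjusted p = 1.69e-07 in edgeR). Only the 3 shared numbers bear on outcome in it, and their not-pregnant embryos are 3 of the 7 with index numbers 11 to 18, so it is no check. With this block the log2 ratio differed by -3.28 (exact permutation p = 0.25, the smallest that 3 pairs can give). Over all settings, edgeR, limma or DESeq2 called 0 to 933 higher and 0 to 341 lower IDs, against 45 and 56. Depth limits NANOG most in not-pregnant 1, 4 and 12, with 2, 7 and 9 counts. The index-number blocks, the share of abundant IDs, leaving out the 7 libraries, the permutation of mean log2 CPM and the comparison of SDs were chosen after seeing the data.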

Other observations

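More IDs moved with NANOG, and with POU5F1, across embryos than with the median ID. After subtraction of the group means, 113 of 8680 IDs with a mean of at least 8 CPM had r of 0.7 or more with NANOG over the 18 embryos and 71 had r of -0.7 or less, 2.12% together. For POU5F1 these counts were 58 and 36 (1.08%), and the median ID had 26 such partners in all. Of the IDs, 98.1% had fewer partners than NANOG and 87.8% had fewer than POU5F1. The IDs were not matched to the factors by abundance or spread. These correlations share libraries and depth and are given as a description.

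The first principal component of the group-centred values over all tested IDs held 13.7% of the variance. All 7 libraries with index numbers 11 to 18 lay on its negative side, from -67.8 to -5.17. Of the not-pregnant libraries outside this run, not-pregnant 8 lay among them at -22.7 and the other 6 were above 0. Subtraction of the group means sets the mean pregnant score to 0, so pregnant scores cannot be placed against the 7 libraries. NANOG rose with the share of counts in the 20 most abundant IDs over the 14 not-pregnant embryos (r = 0.80, permutation p = 0.00081, adjusted 0.00648; rho = 0.85, permutation p = 0.00034, adjusted 0.00272), with r = 0.88 without the 2 libraries farthest in that share. Over all 18 embryos rho passed (0.71, permutation p = 0.00148, adjusted 0.0118) and r did not (0.54, permutation p = 0.0211, adjusted 0.169). Adjustment in each set was over 8 relations of the factors with library measures, and no other relation in either set passed. The 7 libraries are low in both measures, so the relation was also taken on each side. Within the 7 libraries, r between NANOG and the share of counts in the 20 most abundant IDs was 0.64 (rho 0.68, permutation p = 0.119 and 0.109), and within the 11 others it was -0.20 (rho -0.07, permutation p = 0.556 and 0.838). For POU5F1 the values were 0.81 (rho 0.86, permutation p = 0.0296 and 0.0233, adjusted over the 4 relations 0.118 and 0.0932) and 0.37 (rho 0.23, permutation p = 0.266 and 0.505). Without the 2 libraries farthest in that share, r was 0.66 and 0.17 for NANOG and 0.69 and -0.49 for POU5F1. None of these 4 relations within the sets of 7 and 11 passed after adjustment.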
